A study of Mus musculus with 40 samples.

Results

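The lines described here are 9 of 36 BXD recombinant inbred mouse lines whose hypothalamus gave almost no transcript of Ccnb1ip1, a gene on chromosome 14. They were chosen by a level of under 0.4 CPM, the read count of a gene per 1e6 reads counted in its library, in the deposited raw counts. The other 27 lines were at or above that level, and both sets were compared over every other gene. BXD lines are inbred mice that descend from the strains C57BL/6J and DBA/2J, so each line is homozygous for the allele of 1 of these parents over most of the genome. The 9 low lines were BXD43, BXD45, BXD49, BXD51, BXD56, BXD84, BXD85, BXD98 and BXD101. The series holds 40 libraries, 1 per strain, from the 36 BXD lines, both parental strains and their first-generation hybrids of either direction, B6D2F1 and D2B6F1. All were in the basal state without treatment, and age and sex are not given in the labels. A BXD library pools equal amounts of RNA from 3 to 6 hypothalami, so variation between mice of a line was not measured and a p-value here measures a difference against the spread between lines. Because no genotypes were used, the sets are sets of expression, and calling them alleles rests on the pattern of linked genes given below.

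Ccnb1ip1, also called HEI10, is a ring finger protein of the ubiquitin and SUMO ligase kind. In meiosis it gathers at a subset of recombination sites and is needed for crossovers, and in cultured dividing cells it was described as a regulator of B-type cyclins. Outside the germ line it is transcribed at a low level in many tissues, and it has no established function in the hypothalamus. In a panel of recombinant inbred lines, a gene whose level follows the parental allele near its own position is said to have a local, or cis, expression difference. Genes close to it on the chromosome are inherited together with it, and genes on other chromosomes are not.

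Ccnb1ip1 was absent from the reads of the low lines. All 9 libraries had 0 reads, in 233 M counts together. The limit that a count of 0 allows, 3 counts, ranged from 0.0743 to 0.173 CPM per library and was 0.0129 CPM over the 9 libraries together. In the 27 high lines the lowest value was 1.00 CPM in BXD65, the median 1.53 CPM and the highest 3.16 CPM in BXD95, from 19 to 79 reads with a median of 36. No line lay between 0 and 1.00 CPM, and the next line above BXD65 was BXD90 at 1.05 CPM. The mean of the high lines, 1.66 ± 0.532 CPM (SD, n = 27), was at least 129-fold higher than the joint limit of the low lines. These values chose the lines and carry no test. The sets were the same 9 and 27 lines with a threshold of 0.2 or 0.8 CPM.

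**Figure D1:**
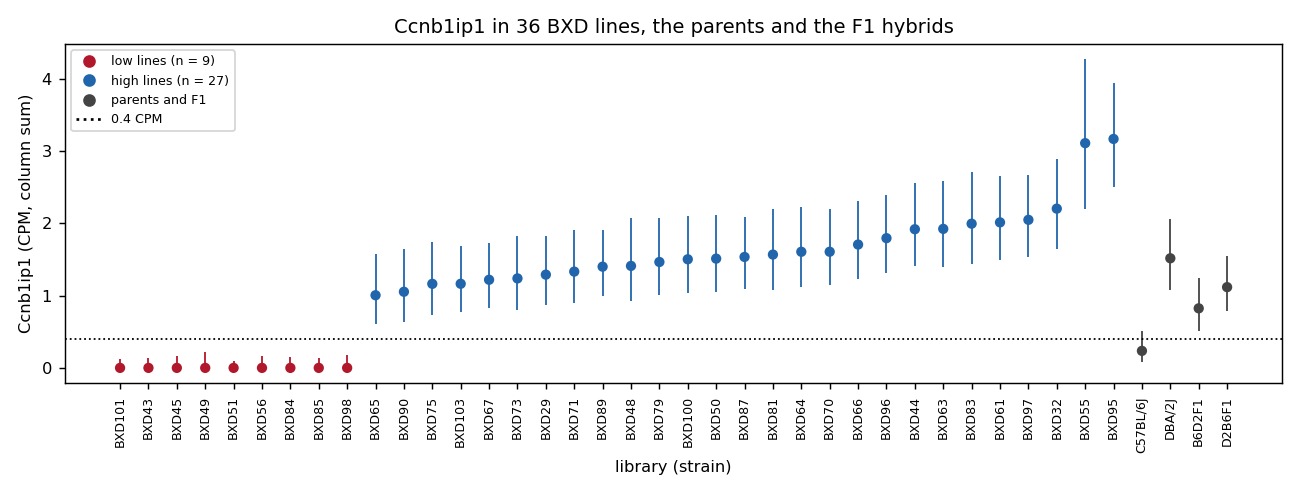
Ccnb1ip1 in CPM by column sum (y axis) in each of the 40 libraries (x axis), with exact Poisson 95% intervals as vertical lines, which cover counting error only. The 9 low lines sit at 0, the 27 high lines between 1.00 and 3.16 CPM, and C57BL/6J at 0.235 CPM is the lowest of the parents and F1 hybrids.

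The parents and hybrids were not used by the rule. C57BL/6J had 6 reads of Ccnb1ip1, or 0.235 CPM, and counting error alone gave this value a 95% range of 0.0863 to 0.512 CPM (exact Poisson). DBA/2J had 40 reads at 1.52 CPM, B6D2F1 22 reads at 0.823 CPM and D2B6F1 36 reads at 1.12 CPM. The low lines thus lay on the side of C57BL/6J and the high lines on the side of DBA/2J, with both hybrids between the parents. C57BL/6J was not at 0, although each of the 9 low lines was. Whether the parental libraries hold reads of another strain was not tested, and each parental value given here carries that limit. The parental libraries also stood nearer to each other than the sets of lines did at most of the chromosome 14 genes that differed between the sets, as given below.

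The stretches of DNA before the starts of 3 groups of genes at this position are shown, because they hold the gene that chose the lines, its nearest neighbours and a pair of ribonuclease genes that share a start and both differed between the sets. Ccnb1ip1 is read from the minus strand. The 250 bases before the start of its short form in RefSeq (GRCm38.p6, chr14:50795729-50795978, minus strand) are printed on the line below, in the direction of transcription.
Ccnb1ip1 upstream: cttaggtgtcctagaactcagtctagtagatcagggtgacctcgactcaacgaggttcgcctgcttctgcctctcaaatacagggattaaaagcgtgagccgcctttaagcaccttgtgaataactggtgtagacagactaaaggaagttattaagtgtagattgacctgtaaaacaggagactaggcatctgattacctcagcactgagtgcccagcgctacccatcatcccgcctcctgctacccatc
In the GENCODE annotation another Ccnb1ip1 transcript starts farther out, and distances below are counted from its start. It begins 35 bases from the start of Rpph1, the RNA of ribonuclease P, and shares exon sequence with it on the same strand. Parp2, a poly(ADP-ribose) polymerase of DNA repair, starts on the other strand 74 bases from the start of Rpph1 and 109 bases from that of Ccnb1ip1. The 73 bases between the starts of Rpph1 and Parp2 (chr14:50807768-50807840, plus strand) lie in the promoter region that both are known to share.
between Rpph1 and Parp2: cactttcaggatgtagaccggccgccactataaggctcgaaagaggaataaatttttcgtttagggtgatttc
Rnase4 and Ang, which encode secreted ribonucleases, have a common start and differ by their last exon. The 250 bases before it (chr14:51090827-51091076, plus strand) follow, with a CCAAT box in capitals.
Rnase4 and Ang upstream: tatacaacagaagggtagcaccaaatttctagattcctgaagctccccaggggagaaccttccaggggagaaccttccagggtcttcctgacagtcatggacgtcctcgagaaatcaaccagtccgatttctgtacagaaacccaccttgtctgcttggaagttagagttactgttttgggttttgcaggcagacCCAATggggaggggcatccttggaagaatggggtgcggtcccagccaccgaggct
Sequences are from RefSeq on GRCm38.p6. They were searched on both strands for the TATA box (TATAAA), the octamer (ATTTGCAT), the CCAAT box (CCAAT) and the E-box (CACGTG). The single match was the CCAAT box at position 196 of the Rnase4 and Ang window, counted from its 5′ end. Over the 32851 RefSeq promoter windows of 250 bases, 33.8% hold CCAAT, 12.4% TATAAA, 6.02% CACGTG and 1.60% ATTTGCAT. In 73 bases the shares are 13.8%, 4.50%, 2.45% and 0.451%. Such a match describes letters and nothing about a factor. The sequences are those of the reference, which is C57BL/6J, and differences of DBA/2J were not analysed here.

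Apart from Ccnb1ip1, 15836 genes passed the filter on low counts, and 30 of them differed between the sets at an adjusted p under 0.05 (edgeR quasi-likelihood test, Benjamini-Hochberg over all genes), which is 0.189% of the genes tested. Of these, 21 were higher in the low lines (0.133%) and 9 were lower (0.0568%). At an unadjusted p under 0.05 there were 826 genes (5.22%). Chromosome 14 held 28 of the 30, among 560 tested, with 19 higher and 9 lower in the low lines. All 28 began between -4.02 and 5.08 Mb from the start of Ccnb1ip1, a window in which 23.9% of the 117 tested genes were called. Within 1 Mb 7 of 14 tested genes were called. The window of -4.02 to 5.08 Mb was set by the farthest edgeR calls, so edgeR called none outside it by definition. Its share of called genes depends on the same choice. DESeq2, fitted to the same counts, called none of the 443 chromosome 14 genes outside it. With edgeR 44 of these had an unadjusted p under 0.05, beside 5.22% of all genes tested. From 5 to 10 Mb, a range that includes Khnyn, it was 16 of 42 tested genes, and from -10 to -5 Mb 4 of 14. From 10 to 20 Mb it was 13 of 91, and above 20 Mb 3 of 123. From -20 to -10 Mb it was 2 of 67, and below -20 Mb 8 of 107. The calls thus do not place the end of the linked difference. On all other chromosomes 2 of 15276 genes were called (0.0131%), among them Pop1. The ranges of the sets did not overlap for 10 genes (0.0631% of those tested), of which 9 lie on chromosome 14 and the other is Pop1.

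**Figure D2:**
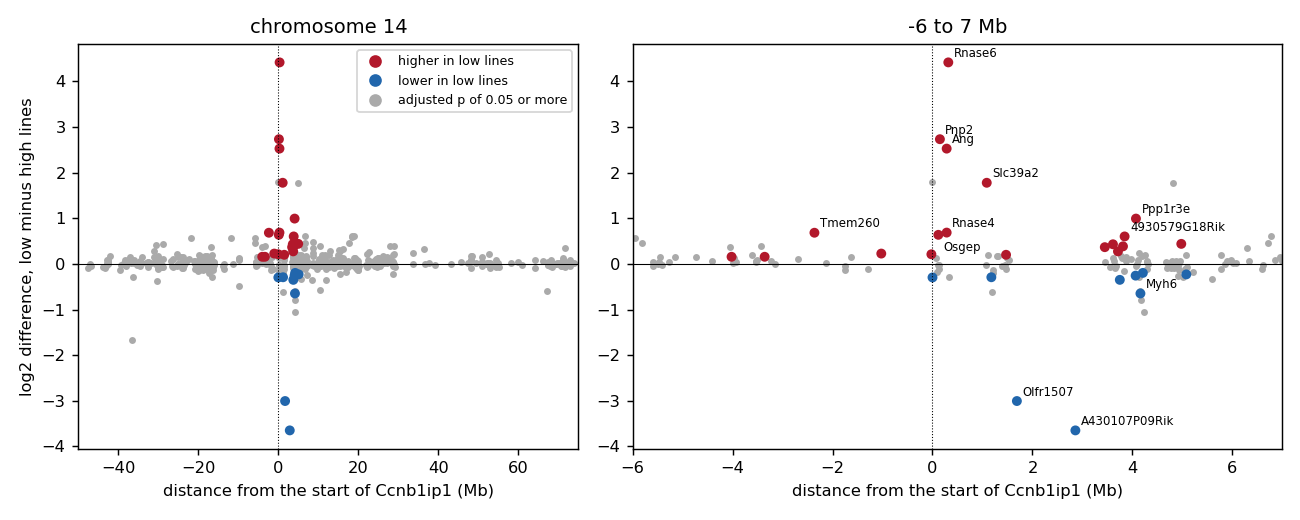
Log2 difference of the low minus the high lines (y axis) for each tested gene of chromosome 14 against its distance from the start of Ccnb1ip1 (x axis, Mb), for the whole chromosome on the left and for the nearest genes on the right. Coloured points are the 28 called genes, which all lie between -4.02 and 5.08 Mb, and grey points are the others.

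Among the called genes the widest difference was that of Rnase6, and the nearby ribonuclease genes Ang and Rnase4 went in the same direction. Rnase6 encodes a ribonuclease of innate defence. Its CPM after TMM scaling was 1.85 at the lowest, 2.30 at the median and 3.00 at the highest of the low lines, and 0, 0.0894 and 0.277 in the high lines. The sets did not overlap, and 3 high lines had no read. The log2 difference was 4.41 (SE 0.19, adjusted p = 2.31e-20 by edgeR's quasi-likelihood test). Ang, angiogenin, had 1.09, 1.87 and 2.30 CPM in the low lines against 0.0829, 0.283 and 0.629 CPM in the high lines, with no overlap and a log2 difference of 2.52 (SE 0.16). Rnase4 was the best expressed of the 3, at 13.9, 17.8 and 19.7 CPM against 8.12, 10.8 and 13.2 CPM, with no overlap and a log2 difference of 0.69 (SE 0.07). All 3 were higher in each low line than in any high line. Ang and Rnase4 share exon sequence on the same strand, so reads of their common first exon cannot be assigned to either, and their values are uncertain to that extent.

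Pnp2, one of a pair of near-identical genes for purine nucleoside phosphorylase of nucleotide salvage, had 0.863, 1.14 and 1.75 CPM in the low lines and 0.0414, 0.191 and 0.372 CPM in the high lines. The sets did not overlap, and the log2 difference was 2.73 (SE 0.16). Its copy Pnp, at 16.3 CPM in the median low line and 17.8 CPM in the median high line, was not called, with a log2 difference of -0.11 (SE 0.04, adjusted p = 0.849). Since the copies match over read-length stretches, reads could be split between them, and both values are uncertain. Slc39a2, a zinc importer of the cell surface, had 8.28, 10.9 and 13.7 CPM against 2.02, 3.19 and 5.03 CPM, without overlap. Its log2 difference was 1.78 (SE 0.09), and it shares exon sequence with Mettl17 on the same strand.

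Genes that were nearly silent in the low lines lay farther up the chromosome. Olfr1507, an olfactory receptor gene 1.69 Mb above Ccnb1ip1, had 0, 0.0434 and 0.288 CPM in the low lines and 0.377, 0.637 and 0.993 CPM in the high lines. A430107P09Rik, 2.86 Mb above, had 0, 0.0580 and 0.121 CPM against 0.351, 0.862 and 1.204 CPM. The sets did not overlap for either gene. Their log2 differences were -3.00 (SE 0.30) and -3.65 (SE 0.24). A430107P09Rik matches the T-cell receptor segments Trav3d-3 and Trav3n-3 at read length, so its reads could be shared with them.

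**Figure D3:**
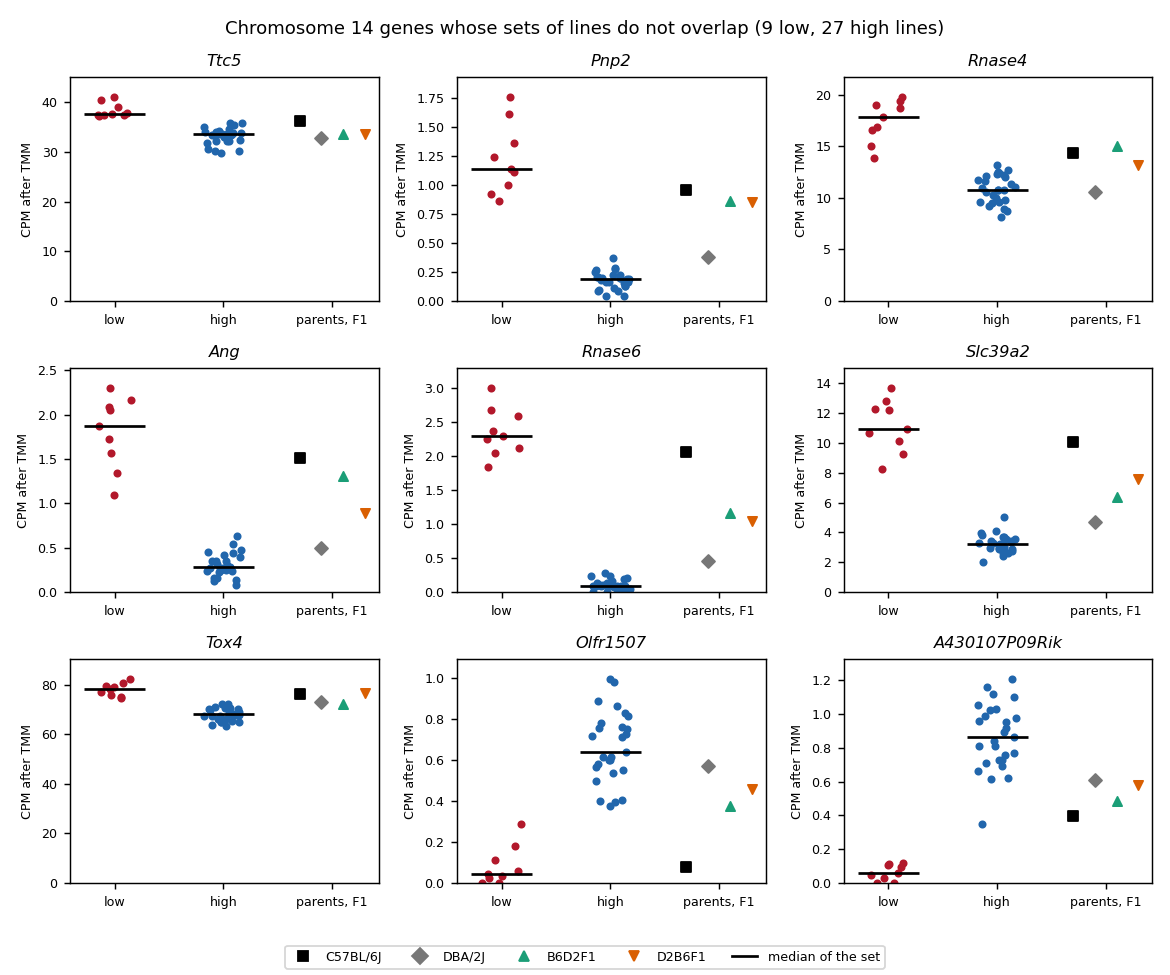
CPM after TMM scaling (y axes, each starting at 0) of the 9 chromosome 14 genes whose ranges do not overlap between the 9 low and the 27 high lines. Each point is 1 line, horizontal bars are medians, and the parents and F1 hybrids are at the right.

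Osgep, the catalytic subunit of the complex that makes the threonylcarbamoyl modification of transfer RNA, had 9.61, 13.3 and 17.5 CPM in the low lines and 7.04, 8.68 and 10.2 CPM in the high lines. Only BXD43 lay inside the range of the high lines, and the log2 difference was 0.64 (SE 0.06). Apex1, which starts beside Osgep and encodes an endonuclease of base excision repair, was not called and differed by -0.01 (SE 0.07). Parp2 was lower in the low lines, at 20.3, 20.8 and 25.3 CPM against 24.02, 26.6 and 29.6 CPM, again with only BXD43 inside the range of the high lines. Its log2 difference was -0.30 (SE 0.04).

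Ttc5, a cofactor of p53 and of tubulin autoregulation, lies 0.022 Mb below Ccnb1ip1 and had 37.1, 37.6 and 40.9 CPM in the low lines against 29.8, 33.6 and 35.7 CPM in the high lines. Tox4, a regulator of chromatin and transcription, had 74.6, 78.1 and 82.0 CPM against 63.4, 68.0 and 72.2 CPM. Both were separate in every line, although their log2 differences were small at 0.21 (SE 0.03) and 0.20 (SE 0.02). Arhgef40, a guanine nucleotide exchange factor, was lower, with a log2 difference of -0.29 (SE 0.05) and 4 of the 9 low lines inside the range of the high lines. Tox4 and Arhgef40 overlap other genes on the opposite strand, and the strand setting of the authors' counting is not given in the sources used here. Transcripts of other counted genes match Ttc5, Tox4, Arhgef40, Parp2, Osgep, Tmem260 and Fbxo34 at read length. Reads of these called genes could thus be shared, and their values are uncertain to that extent.

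Of the 22 tested genes listed as neighbours of Ccnb1ip1, 6 were higher in the low lines (beside 0.133% of all genes tested), 2 were lower (beside 0.0568%), and 17 had an unadjusted p under 0.05 (beside 5.22%). Their median log2 difference was 0.10, beside 0.00 over all genes tested. The uncalled neighbours included Tep1, a telomerase-associated protein, at 0.12 (SE 0.06), Klhl33 at -0.18 (SE 0.07), Tmem55b at -0.03 (SE 0.04), Chd8, a chromatin remodeller, at -0.01 (SE 0.04), and Hnrnpc, an RNA-binding protein, at 0.17 (SE 0.04). Ndrg2, at 0.19 (SE 0.04), just missed the threshold (edgeR adjusted p = 0.0544), and DESeq2 called 9 genes of the list. By the edgeR threshold, called and uncalled genes thus alternated over short distances.

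Rpph1, the RNA of ribonuclease P, had 0.367, 3.91 and 9.56 CPM in the low lines and 0.171, 0.577 and 7.43 CPM in the high lines, so the ranges overlapped for 7 of the 9 low lines. The log2 difference of 1.78 (SE 0.49) was not called (adjusted p = 0.275). Its level went with that of Lars2, a mitochondrial leucyl-tRNA synthetase, which ranged from 417 to 13152 CPM in the low lines and from 314 to 12032 CPM in the high lines. Over the 9 low lines Pearson's r of Lars2 and Rpph1 was 0.98 (exact permutation p = 9.37e-05, adjusted over 4 relations 0.000187) and Spearman's rho was 0.95 (exact permutation p = 0.000353). Over the 27 high lines r was 0.90 (permutation p = 1e-05, the smallest that 100000 permutations can give) and rho was 0.74 (permutation p = 1e-05). Without the 2 lines farthest from the median of Lars2, r was 0.95 and 0.84. The libraries were made for mRNA and Rpph1 is not an mRNA, so the correlation is one of counts. Which RNA gave the reads of Lars2 was not tested. Nor was the part of Lars2 in the difference of Rpph1 between the sets.

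Tmem260, an O-mannosyltransferase 2.36 Mb below, had 18.02 to 20.4 CPM in BXD45, BXD49 and BXD98 and 33.5 to 42.7 CPM in the other 6 low lines. The high lines had 17.2, 19.4 and 22.4 CPM, so those 3 low lines lay inside their range and the other 6 far above it. The log2 difference over all lines was 0.68 (SE 0.09). Cnih1, a cargo receptor at -4.02 Mb, was the farthest called gene on that side, with BXD45, BXD49, BXD56, BXD84 and BXD98 inside the range of the high lines and a log2 difference of 0.16 (SE 0.04). It is the weakest call, with an adjusted p of 0.0481. Fbxo34, an F-box protein, at 0.16 (SE 0.03) and 3632451O06Rik at 0.23 (SE 0.05) were the other called genes below Ttc5. For 3632451O06Rik all 9 low lines, at 40.8 to 50.3 CPM, lay inside the range of the high lines, whose highest value was 53.8 CPM in BXD32.

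Dad1, a subunit of oligosaccharyltransferase 3.45 Mb above, had 41.4 CPM in BXD43 and 56.8 to 67.1 CPM in the other 8 low lines. The high lines had 37.4, 46.1 and 53.1 CPM, so BXD43 alone lay inside their range, and the log2 difference was 0.37 (SE 0.05). For Prmt5, an arginine methyltransferase at 3.71 Mb, and for Psmb5, a proteasome subunit at 3.81 Mb, the lines inside the range were BXD43 and BXD85, with log2 differences of 0.27 (SE 0.04) and 0.38 (SE 0.08). For 4930579G18Rik at 3.84 Mb they were BXD51 and BXD85, with a log2 difference of 0.60 (SE 0.08), and this gene lies on the opposite strand of Acin1.

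Between 4.06 and 4.16 Mb the lines inside the range of the high lines were BXD84 and BXD85 for 3 neighbouring genes. Ppp1r3e, a glycogen-targeting subunit of protein phosphatase 1, had 4.71 CPM in BXD85, 5.41 CPM in BXD84 and 8.90 to 11.5 CPM in the other 7 low lines, against 3.57, 4.56 and 5.89 CPM in the high lines. The log2 difference was 0.99 (SE 0.09). Myh6, the alpha heavy chain of cardiac myosin, had 12.6 and 12.7 CPM in these lines and 4.88 to 7.81 CPM in the other 7, against 9.24, 11.8 and 14.4 CPM, with a log2 difference of -0.65 (SE 0.11). Homez, a homeobox gene, differed by -0.26 (SE 0.05). Myh6 matches its neighbour Myh7 at read length, so its count is uncertain. In the deposited normalized table the log2 difference of Myh6 was -3.42, and the cause was not tested.

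The remaining called genes on that side were Slc7a7, Haus4, Ngdn, Adcy4 and Khnyn. Slc7a7, a subunit of a cationic amino acid transporter, differed by 0.43 (SE 0.09), and 6 low lines lay inside the range of the high lines. Its difference turned to -0.16 (limma adjusted p = 0.992) in the deposited normalized table, and its call was lost without any 1 of BXD49, BXD51 or BXD84. Haus4, a subunit of augmin, differed by -0.35 (SE 0.07), Ngdn, a protein of ribosome assembly and translation control, by -0.20 (SE 0.04), and Khnyn, an endonuclease of antiviral defence, by -0.23 (SE 0.05). Adcy4, an adenylyl cyclase, differed by 0.44 (SE 0.09). Slc7a7 and Khnyn overlap Oxa1l and Sdr39u1 on the opposite strand. BXD85 lay inside the range of the high lines for 13 of the 28 called genes, BXD84 for 10, BXD43 for 9, BXD98 for 8, BXD45 and BXD101 for 6, BXD49 for 5, BXD56 for 4 and BXD51 for 3, each count including 3632451O06Rik.

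**Figure D4:**
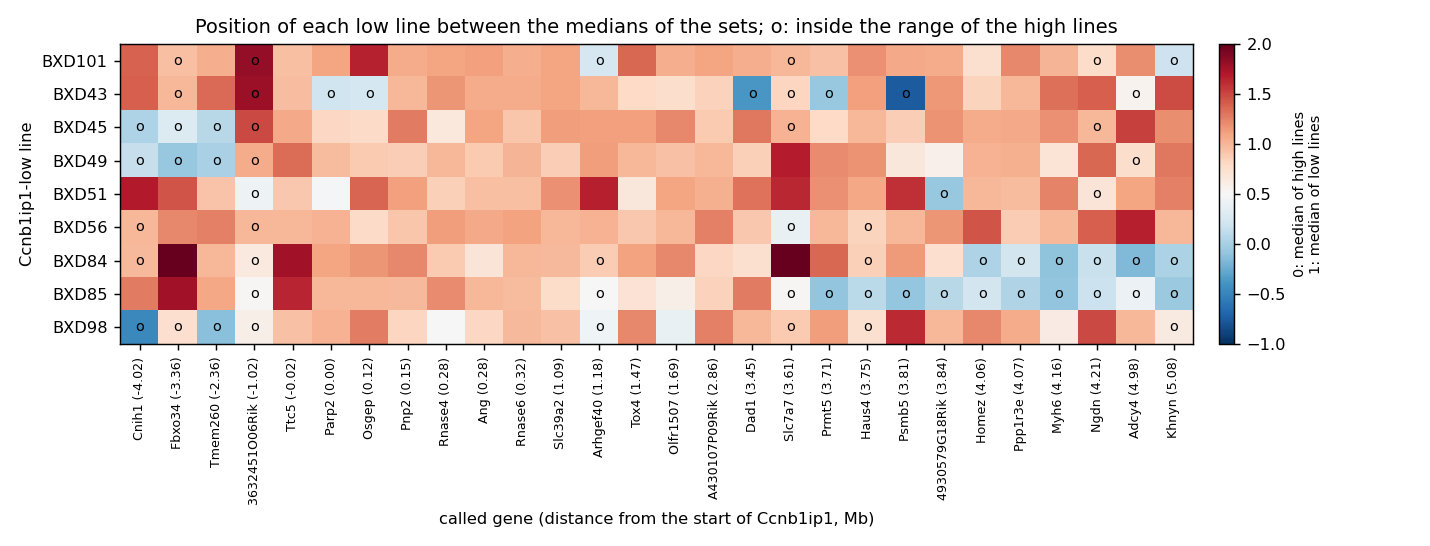
Rows are the 9 low lines and columns the 28 called chromosome 14 genes in order of their distance from Ccnb1ip1. Colour gives each line's log2 level (with 0.1 CPM added) on a scale from 0 at the median of the high lines to 1 at the median of the low lines, and o marks a level inside the range of the high lines, as in BXD45, BXD49 and BXD98 at Tmem260 and in BXD84 and BXD85 at Ppp1r3e, Homez and Myh6.

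The parents gave the same direction as the lines for 27 of the 28 called genes of chromosome 14, with Haus4 the exception, as against 53.6% of all genes tested. This count rests on 1 library per parent and has no test. The difference between C57BL/6J and DBA/2J was smaller than that between the sets for 26 of the 28 genes, and the median ratio of the log2 differences was 0.625. These genes were selected by their difference between the sets, which by itself favours a ratio below 1. For Rnase6 C57BL/6J had 2.07 CPM and DBA/2J 0.456 CPM, the latter above all 27 high lines. For A430107P09Rik C57BL/6J had 0.398 CPM, above all 9 low lines, and DBA/2J 0.608 CPM. Both F1 hybrids lay between the parents for 16 of the 28 genes, 1 of the hybrids for 9 and neither for 3. For Rnase6 B6D2F1 had 1.16 CPM and D2B6F1 1.04 CPM, and for Slc39a2 they had 6.37 and 7.56 CPM between C57BL/6J at 10.1 CPM and DBA/2J at 4.71 CPM.

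Pop1 was the only gene off chromosome 14 whose ranges did not overlap. It lies on chromosome 15 and encodes the largest protein subunit of ribonuclease P and ribonuclease MRP, which trim the precursors of transfer and ribosomal RNA. The low lines had 8.07 CPM at the lowest, 9.16 CPM at the median and 10.3 CPM at the highest, and the high lines 5.02, 6.67 and 7.65 CPM. Each low line was above each high line. The log2 difference was 0.48 (SE 0.06, adjusted p = 2.58e-07 by edgeR's quasi-likelihood test), and the call held in each of the 46 fits made, counting the alternatives and the 36 fits that leave out a line. C57BL/6J had 9.10 CPM, DBA/2J 7.06 CPM, B6D2F1 7.95 CPM and D2B6F1 8.02 CPM, so the parents lay in the same direction and the hybrids between them.

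No gene around Pop1 was called. Of the 16 tested genes within 2 Mb none was called by edgeR or DESeq2, 2 had an unadjusted p under 0.05, and the smallest adjusted p was 0.553. No other transcript of the GENCODE annotation matched Pop1 at 95% identity over 100 bases or more, and no other gene overlapped its exons. Of 13 tested genes of ribonuclease P and MRP, a list chosen after the values were seen, Pop1 was called and the others were not. Rpp30, Rpp38, Rpp14 and Pop4, further protein subunits, differed by 0.07 (SE 0.06), 0.07 (SE 0.06), 0.09 (SE 0.05) and -0.03 (SE 0.04). The correlation of Pop1 and Rpph1 did not pass the threshold within either set. Pearson's r was -0.11 over the 9 low lines (exact permutation p = 0.768) with rho of -0.10 (exact permutation p = 0.810), and 0.19 over the 27 high lines (permutation p = 0.354) with rho of 0.11 (permutation p = 0.571). Without the 2 lines farthest from the median of Rpph1, r was -0.02 and 0.18.

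**Figure D5:**
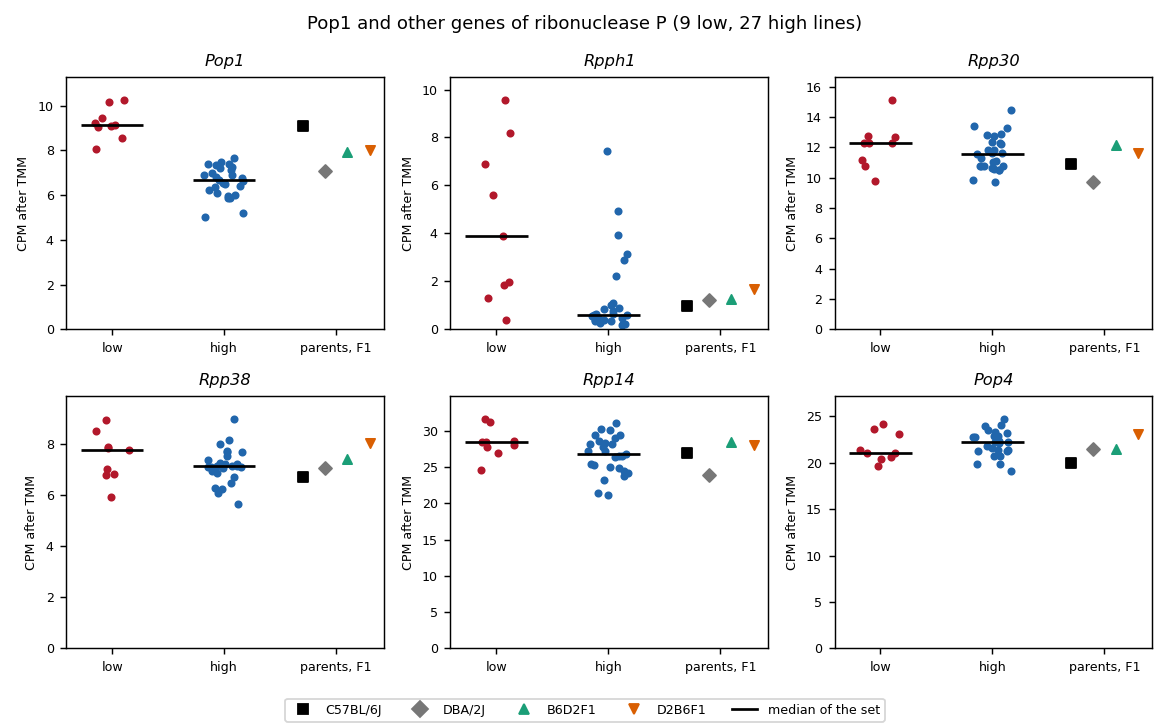
CPM after TMM scaling (y axes, each starting at 0) of Pop1, of Rpph1, the RNA of ribonuclease P, and of 4 further protein subunits in the 9 low lines, the 27 high lines, the parents and the F1 hybrids, with medians as bars. Only Pop1 separates the sets.

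Snapc4, a subunit of the complex that starts transcription of small nuclear RNA, on chromosome 2, had a log2 difference of -0.15 (SE 0.03). It just missed the threshold with edgeR (adjusted p = 0.0516) and passed it with DESeq2 (adjusted p = 0.00870).

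Gene lists tied to the known roles of Ccnb1ip1 were short, and with 0.189% of all tested genes called, a count of 0 in them is near the background and says nothing particular about their members. None of 20 tested genes of meiotic crossover and synapsis was called, with a median log2 difference of 0.04 beside 0.00 over all genes. Their smallest p belonged to Rec8, a meiotic cohesin 4.81 Mb above Ccnb1ip1 (edgeR adjusted p = 0.621). It had 39.7 to 50.0 CPM in BXD49, BXD51, BXD56 and BXD98 and 0.440 to 4.12 CPM in the other low lines. The high lines ranged from 0.153 to 23.6 CPM, so those named low lines lay above every high line. None of 17 genes of B-type cyclins and mitosis and none of 19 genes of ubiquitin and SUMO conjugation was called, with medians of 0.01 and 0.00. In these 3 lists 1, 0 and 0 genes had an unadjusted p under 0.05, beside 5.22% of all genes, and DESeq2 called 0 in each. Nor was any of 20 hypothalamic neuropeptide genes called, with a median of -0.01, 0 at an unadjusted p under 0.05 and 0 by DESeq2. Agrp, the orexigenic peptide of the arcuate nucleus, differed by -0.23 (SE 0.15).

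Fgf15, the secreted growth factor named in the title of the series, lies on chromosome 7. Fgf15 had 0.293, 1.15 and 1.80 CPM in the low lines and 0.230, 1.05 and 2.09 CPM in the high lines, and each of the 9 low lines lay inside the range of the high lines. The log2 difference was -0.08 with a 95% interval of -0.73 to 0.57 (SE 0.32, edgeR adjusted p = 1.00). Of 8 tested genes of Fgf15 and its receptors and partners none was called, and 1, Fgfr3 at -0.10 (SE 0.04), had an unadjusted p under 0.05, and DESeq2 called 0.

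Library totals were 25.9 ± 6.69 M counts in the low lines (SD, n = 9, range 17.3 to 40.4) and 22.5 ± 3.28 M in the high lines (SD, n = 27, range 12.2 to 28.6), with an exact two-sided permutation p of 0.0550. Markers of hypothalamic neurons summed to 241 to 495 CPM in the low and 167 to 477 CPM in the high lines, so both sets had the markers of the labelled tissue. Summed markers of 11 other tissues and cell types overlapped between the sets, and the smallest p was that of the meninges and fibroblasts (exact permutation p = 0.0617, adjusted over 13 measures 0.401). Those 8 genes, none called and 4 at an unadjusted p under 0.05, summed to 87.3 to 325 CPM in the low and 76.3 to 238 CPM in the high lines, with a median log2 difference of 0.40, and their part in the calls was not tested. All 4 globin genes listed were at 0 in every line, and why they had no counts was not tested. Alas2, the other blood marker listed, had 1.87 to 6.26 CPM in the low and 1.20 to 8.28 CPM in the high lines. Fewer cells of a type and less RNA per cell cannot be told apart in these bulk samples.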

How the data were processed

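Hypothalamic RNA was sequenced as stranded mRNA libraries (planned 40 M single-end reads of 100 bases from 1 µg of RNA), per the labels' protocols. Per the submitters' processing notes, TopHat2 2.0.8, HTSeq 0.5.4p3, DESeq and the assembly mm9 were used, and roles, strand setting and annotation are not given in the sources used here. The authors deposited raw read counts for 23955 symbols, which every main result used, and a normalized table, a signal for 15251 names scaled per library by the authors, used for an alternative only (limma on log2(value + 1)). Distances came from GENCODE vM21 on GRCm38.p6, where 99.5% of symbols were placed. This build differs from that of the counts, so printed coordinates are of the reference only.

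Lines were split by Ccnb1ip1 CPM over column sums, and Ccnb1ip1 was then left out of the tests. edgeR 4.0.16 in R 4.3.3 was fitted to the 36 lines (TMM, filterByExpr, robust quasi-likelihood, Benjamini-Hochberg adjusted p under 0.05), with differences as low minus high lines. Printed CPM of other genes are after TMM over 40 libraries, and parental log2 values carry a prior count of 2. Alternatives were DESeq2 1.42.0, limma-voom (limma 3.58.1), RLE size factors, other filters, covariates, lines with at least 15 M counts and leaving out each line. One covariate was the side of the widest gap in H2-K1, with 8 low and 19 high lines on its upper side. Single values used exact permutation over 94143280 arrangements, or 100000 permutations for 27 lines. Shared exons and copies were sought with blastn 2.17.0 among transcripts. On simulated data of 15769 genes edgeR recovered 84% of 100 genes changed by 0.5 log2 units and 96% of 100 changed by 1, with 6 false calls. Genes of the lowest mean counts were not among those changed, and each gene was simulated independently. The shares therefore do not cover such genes or linked genes.

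Named were, on chromosome 14, the 12 called genes with the largest differences and the 12 with the smallest adjusted p, listed and nearest neighbours, called genes elsewhere, Fgf15, and members with the smallest p of lists without calls. The remaining called genes, the ribonuclease P list, Lars2 and Snapc4 were added after their values were seen. A called gene that the rule names is not reported here. Members and lists were chosen with earlier results of these data known. The Poisson intervals and the limits for counts of 0 cover counting error only, and PCR copies were not marked. The interval of Fgf15 is its difference plus or minus 2 SE of the edgeR fit, which covers the spread between lines. There were 1 library per strain and no technical replicates.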

Additional observations from a re-analysis of the deposited data

Results flagged for a closer look

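Among the named genes, 77 were checked for a single low line far from the other 8, and 10 had 1. Chance would flag about 1 in 20 such groups if the values of each were normally distributed. That was not tested for these CPM, so the rate is only a rough guide. For BXD43 the lowest values were Dad1 at 41.4 CPM, beside a median of 61.3 CPM in the low lines, Tmem55b at 50.6 CPM beside 68.7 CPM and Rpp21 at 7.52 CPM beside 9.92 CPM. BXD101 had the highest Ttr, the thyroid hormone carrier of the choroid plexus, at 50.3 CPM beside a median of 1.75 CPM, and the highest Agrp at 4.62 CPM beside 2.75 CPM. BXD85 had the highest Haus4 at 4.68 CPM beside 3.60 CPM. BXD56 had the highest Dcn, a proteoglycan of fibroblasts, at 47.6 CPM beside 21.8 CPM. BXD49 had the highest Mobp, a myelin protein, at 312 CPM beside 229 CPM. BXD51 had the highest Rpp40 at 7.03 CPM beside 5.27 CPM, and BXD98 the lowest Ube2b, a ubiquitin-conjugating enzyme, at 146 CPM beside 178 CPM.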

How the results depend on the processing

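Of the 30 called genes, 22 stayed called without each of the 36 lines in turn, and these also in each other fit that tested them. Over the 9 other fits alone, only the calls of Adcy4, Cnih1, Fbxo34 and Slc7a7 changed. Without each line the count was 25 to 36, 23 to 31 on chromosome 14 and likewise within 10 Mb. On other chromosomes it was 1 to 6 beside 2: 1 without BXD45, BXD49, BXD56 or BXD101, 4 without BXD48, 5 without BXD32 or BXD98 and 6 without BXD43. DESeq2 called 6 there, and a mean of at least 1 CPM, which tests fewer genes, left 1. Slc7a7 turned to -0.16 in the deposited normalized table (adjusted p = 0.992, limma), and the cause was not tested. Leaving out a line also ended calls of Cnih1 (24 lines), Ngdn (6), Adcy4 (4), Fbxo34 (4), 3632451O06Rik (3), Slc7a7 (3) and Psmb5 (1). Adcy4, Fbxo34 and Cnih1 were not called with library totals as a covariate. Cnih1, the farthest called gene below Ccnb1ip1, was also not called with limma-voom, the deposited normalized table or the side of H2-K1 as a covariate. With the side of H2-K1 as a covariate 31 genes were called, with library totals 29. No paired analysis was possible because each line has 1 library and no numbers pair lines across the sets. Depth limits the genes near 1 CPM, such as Olfr1507 and A430107P09Rik, where the low lines had few reads.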
